A study of Mus musculus with 44 samples.

Results

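The 9 genes described here carry iron through the organism and the cell: Heph, Cp, Trf, Ltf, Tfrc, Slc40a1, Slc11a2, Cybrd1 and Fth1. They were taken by symbol from a count table of 19733 gene symbols, and all 9 were found. Heph, Cp and Ltf were picked because earlier results had called them between CDX2 and GFP organoids, so their values in that contrast are given as a description. Their p-values in other contrasts that use the CDX2 or GFP libraries are not independent of that choice. The series holds 44 mouse samples on the conversion of stomach cells towards intestine. Of these, 20 are RNA-seq libraries of organoids, which are epithelial cultures grown in 3 dimensions, all of strain C57BL/6.

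The libraries form 2 experiments that were kept apart. The first has 3 lines each of isogenic mouse gastric organoids carrying CDX2, HNF4A or GFP by lentivirus, and 2 lines of mouse small intestine organoids. Both CDX2 and HNF4A encode DNA-binding regulators active in intestinal epithelium, and GFP is the control transgene. The second has stomach antrum organoids that all overexpress HNF4A, with 3 libraries each of wild type, heterozygous deletion and homozygous deletion of an enhancer 3' of Cdx2. None of the 9 enhancer libraries is without the HNF4A transgene. The labels do not say whether replicates came from separate animals or cultures, so p-values measure the spread between these libraries only. Total counts were 6180498 to 11007809 in the 11 libraries of the lines and 8173640 to 11465309 in the 9 enhancer libraries.

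Some libraries stood apart. Summed gastric mucous and gland markers were 4388 to 14747 CPM (counts scaled to a library of 1000000) in GFP, 2649 to 10360 in HNF4A, 596 to 3390 in CDX2 and 59.3 to 307 in small intestine organoids. Summed enterocyte markers were 449 to 642 CPM in GFP, 863 to 1015 in HNF4A, 986 to 1483 in CDX2 and 1425 to 1716 in small intestine organoids. Of these 12 markers, Vil1 was at 311 to 611 CPM over the libraries of the lines, and Cdh17 and Anpep reached 861 and 407. None of the others passed 146 CPM, the peak of Alpi. In the enhancer experiment, the summed level of 12 fibroblast markers was 3.31 to 6.74 CPM in wild type, 102 to 1298 in heterozygous and 37.6 to 1098 in homozygous libraries. Few of the 12 carried this sum: the highest peaks were 538 CPM for Vim, 320 for Col1a1, 193 for Sparc and 172 for Col6a3. Lum was at 0 in all of these libraries, and Dcn, Acta2, Thy1 and Col1a2 reached at most 0.602, 0.602, 0.114 and 4.31 CPM. Wnt3a was at 0 to 4.33 CPM in wild type and at 95.1 to 3099 CPM in the deletion libraries. The Y-linked gene Ddx3y passed 1 CPM in wild type replicate 3 alone among the 9. In bulk RNA, fewer cells of a type and less RNA per cell cannot be told apart.

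In the gut, dietary ferric iron is reduced at the brush border and taken up as ferrous iron by a metal transporter. It leaves the cell through an exporter at the basolateral membrane, where a copper-dependent ferroxidase oxidises it for loading onto transferrin in blood. Other cells take up iron-loaded transferrin through its receptor and store spare iron in ferritin. Cybrd1 encodes the duodenal ferric reductase and Slc11a2 the apical transporter DMT1. Slc40a1 encodes the exporter ferroportin, and Heph encodes hephaestin, the ferroxidase of enterocytes. Cp encodes ceruloplasmin, the related ferroxidase of plasma. Trf and Ltf encode transferrin and lactoferrin, 2 related iron-binding secreted proteins. Tfrc encodes the transferrin receptor and Fth1 the ferritin heavy chain.

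On GRCm38.p6, in RefSeq's annotation, Heph lies on chrX:96455436-96574485, Cp on chr3:19956933-20009750, Trf on chr9:103208876-103230286 and Ltf on chr9:111019292-111042766. Slc40a1 lies on chr1:45908070-45926532, Slc11a2 on chr15:100387898-100424209 and Cybrd1 on chr2:71118054-71142926. Tfrc lies on chr16:32608896-32632794 and Fth1 on chr19:9980600-9985111. Cp, Trf, Ltf and Cybrd1 were lower in small intestine than in HNF4A organoids. Of these, Trf had no promoter window, and the windows of Cp are not shown. The 250 bases before the starts of Ltf and Cybrd1 are shown, at chr9:111019042-111019291 and chr2:71117804-71118053. Both are on the plus strand, from RefSeq (GRCm38.p6). Capitals mark AGATAA, a letter string of GATA factor sites.
Ltf: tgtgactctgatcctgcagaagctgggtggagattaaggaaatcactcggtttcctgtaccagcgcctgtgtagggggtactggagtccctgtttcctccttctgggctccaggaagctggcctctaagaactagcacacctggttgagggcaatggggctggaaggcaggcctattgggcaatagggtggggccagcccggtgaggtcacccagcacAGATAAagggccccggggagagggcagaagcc
Cybrd1: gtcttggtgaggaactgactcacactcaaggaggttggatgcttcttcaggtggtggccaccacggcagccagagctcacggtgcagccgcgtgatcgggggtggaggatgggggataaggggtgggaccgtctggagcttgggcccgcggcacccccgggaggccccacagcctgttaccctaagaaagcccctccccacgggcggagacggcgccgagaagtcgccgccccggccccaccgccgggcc

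Promoter windows of this length were found for 5 of the 9 genes, 8 windows in all. On either strand, AGATAA stood in 9.99% of all 32851 windows and, among the 5 genes, in that of Ltf. The CDX core TTTATG stood in 10.8% of all windows and in none of the 8. The HNF4 core CAAAGTC stood in 3.84% of windows and in 1 window of Fth1, and TATAAA stood in 12.4% and in windows of Cp and Fth1. A match is a description of the letters, and a missing match says nothing of the factor.

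Hephaestin showed the widest gap between the GFP lines and the rest. Heph had 0, 20 and 0 reads in GFP replicates 1, 2 and 3, which is 2.13 CPM in replicate 2. Its level was 272, 77.3 and 99.7 CPM in the 3 CDX2 lines, 109, 56.7 and 32.9 in the HNF4A lines, and 100.3 and 149 in the 2 small intestine lines. Every library of the other 3 groups lay above every GFP library, and those 3 groups overlapped each other. The enterocyte marker sums were likewise above the GFP range in every library of those 3 groups. Cdx2 was at 62.0 to 288 CPM in CDX2, 22.6 to 50.7 in HNF4A, 3.19 to 7.44 in GFP and 272 to 282 in small intestine lines. Hnf4a was at 186 to 441, 289 to 502, 95.7 to 158 and 717 to 885 CPM in the same order. The part of the marker sums, Cdx2 and Hnf4a in the Heph values was not tested.

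**Figure D1:**
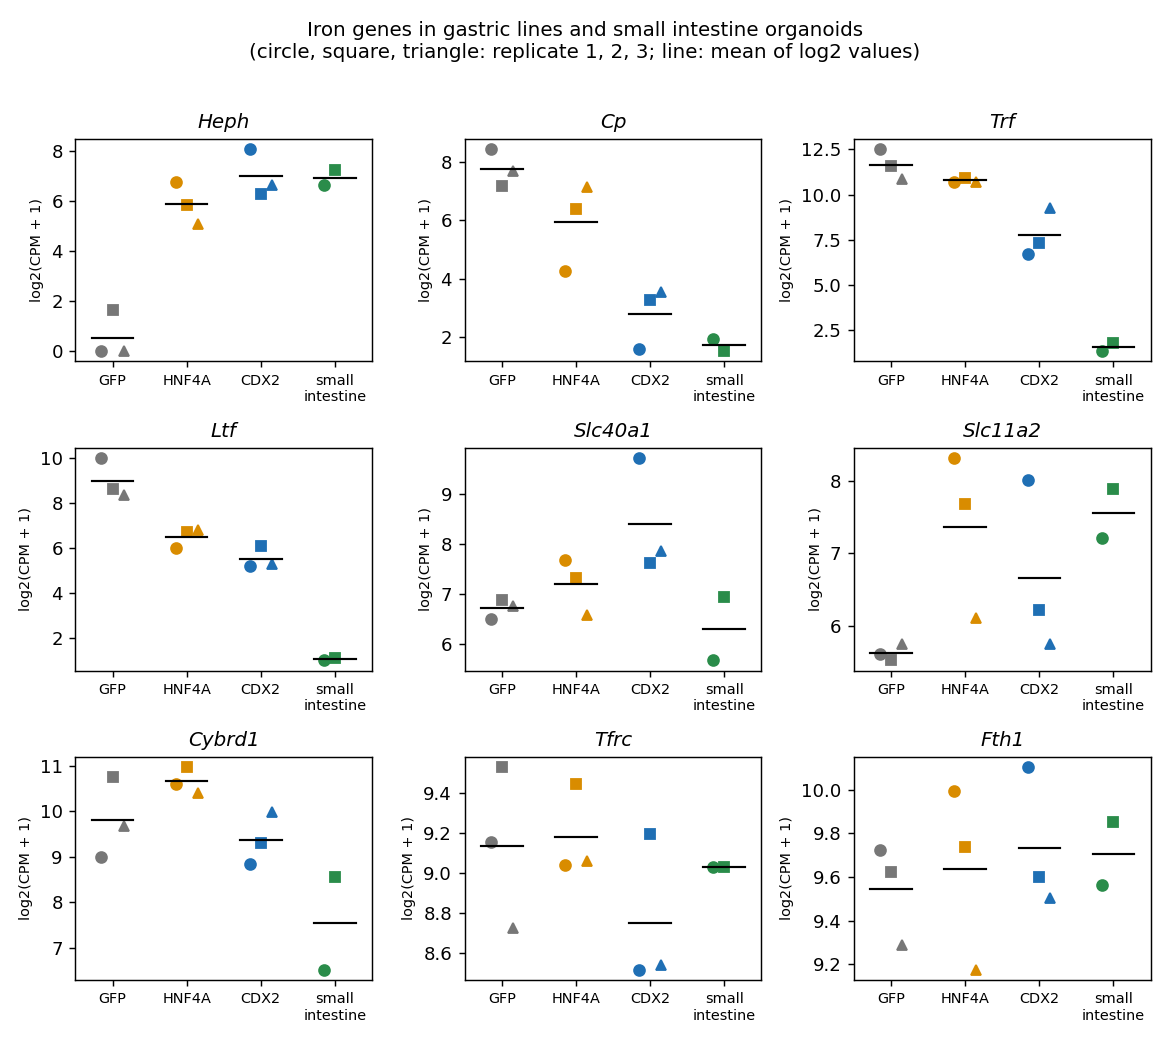
Level of each of the 9 genes, as log2(CPM + 1), in each library of the GFP, HNF4A and CDX2 gastric lines and the small intestine organoids; points are libraries and horizontal lines are means of the log2 values. Heph is near 0 in the GFP lines alone, while Cp, Trf and Ltf step down from GFP to small intestine, and Tfrc and Fth1 stay in a narrow band.

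Because GFP replicates 1 and 3 held no Heph read, a bound was set from 3 counts over those 2 libraries. Against it, the mean of 150 ± 107 CPM (SD, n = 3) in CDX2 lines was at least 875-fold higher. The mean of 66.3 ± 39.0 CPM (SD, n = 3) in HNF4A lines was at least 387-fold higher, and that of 125 ± 34.7 CPM (SD, n = 2) in small intestine at least 730-fold higher. These bounds hold against GFP replicates 1 and 3 only, and not against the GFP group, whose mean over all 3 libraries was 0.709 CPM. Against all 3, the fitted folds were smaller, at 201 for CDX2, 88.9 for HNF4A and 167 for small intestine. With all 3 GFP libraries, the fitted log2 difference was 7.39 ± 1.10 (SE) for small intestine, which passed edgeR's quasi-likelihood test (adjusted p = 0.00258). For HNF4A it was 6.47 ± 1.05 and did not pass (adjusted p = 0.0639 in edgeR). With the replicate number as a block, that adjusted p was 0.0285, and without HNF4A replicate 3 it was 0.0494. For CDX2 the fitted value was 7.65, given here with no test since Heph was chosen on it. The small intestine and HNF4A tests use the GFP libraries of that choice, so their p-values are not independent of it. These fitted log2 values rest on the 20 reads of GFP replicate 2. Without that library they were 13.1 for small intestine, 12.2 for HNF4A and 13.3 for CDX2, and the bounds above leave it out.

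Ceruloplasmin ran the other way. Cp was at 348, 142 and 207 CPM in the GFP lines, 18.4, 81.9 and 142 in the HNF4A lines, 2.01, 8.57 and 10.6 in the CDX2 lines, and 2.79 and 1.87 in small intestine. The highest HNF4A library lay just under the lowest GFP library, and the CDX2 and small intestine ranges overlapped at the bottom. Small intestine organoids were lower than GFP lines by a log2 difference of -6.62 ± 1.08 (adjusted p = 0.0036 in edgeR) and lower than HNF4A lines by -5.09 ± 1.01 (adjusted p = 0.0172). The second call was lost without either small intestine library, at adjusted p = 0.146 without replicate 1 and 0.0593 without replicate 2. CDX2 lines had a log2 difference from HNF4A lines of -3.54 ± 0.77 with all 3 libraries below all 3, which did not pass edgeR (adjusted p = 0.276) and passed DESeq2 (adjusted p = 0.000158).

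Transferrin and lactoferrin showed a steep gradient. Trf was at 5929, 3098 and 1838 CPM in GFP, 1682, 1957 and 1686 in HNF4A, and 102, 160 and 616 in CDX2 lines. In small intestine it had 16 and 22 reads, or 1.49 and 2.41 CPM. GFP and HNF4A lines overlapped, and each other neighbouring pair of groups was separate.

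Ltf was at 1034, 400.1 and 335 CPM in GFP, 64.5, 105 and 110.1 in HNF4A, 35.7, 68.1 and 39.1 in CDX2, and 1.02 and 1.21 in small intestine lines, with 11 reads in each of the last pair. All GFP libraries lay above all others, HNF4A and CDX2 lines overlapped, and small intestine was lowest. Neutrophils are a known source of lactoferrin. The sum of 7 neutrophil markers was 0 to 0.854 CPM in the libraries of the lines, with Mpo and Elane at 0 in all 11.

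Small intestine organoids were lower in Trf than GFP lines by a log2 difference of -10.86 ± 1.16, than CDX2 lines by -7.23 ± 1.01 and than HNF4A lines by -9.83 ± 1.12. EdgeR's adjusted p-values for these were 0.000642, 0.00502 and 0.00193. Without small intestine replicate 1 the call against CDX2 was lost (adjusted p = 0.0710). For Ltf the differences were -9.03 ± 0.76, -5.40 ± 0.67 and -6.37 ± 0.69, with adjusted p = 0.000198, 0.00313 and 0.00147 in the same test. HNF4A lines differed from GFP lines in Ltf by -2.66 ± 0.45, which did not pass (adjusted p = 0.0657 in edgeR, 0.0671 with the replicate block), and passed DESeq2 (adjusted p = 8.85e-07). In Trf the HNF4A and GFP lines differed by -1.03 ± 0.63, within the spread. CDX2 lines had less Trf than HNF4A lines in all 3 libraries, by -2.60 ± 0.66 (adjusted p = 0.363 in edgeR and 0.00288 in DESeq2).

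The exporter ferroportin was spread most among the CDX2 lines. Slc40a1 was at 841, 197 and 231 CPM in CDX2, 206, 158 and 95.3 in HNF4A, 89.4, 118 and 107 in GFP, and 50.0 and 121 in small intestine lines. CDX2 lay above GFP and small intestine in every library, with replicate 1 far above the others. No test passed in the main edgeR fit, where small intestine against CDX2 gave -2.31 ± 0.67 (adjusted p = 0.0531). That value passed without CDX2 replicate 2 (adjusted p = 0.0390 in edgeR) and in DESeq2 (adjusted p = 0.0019). With the replicate block the adjusted p was 0.0477 in edgeR, though replicate numbers do not pair small intestine with CDX2 lines. Without CDX2 replicate 1 the difference was -1.32 (adjusted p = 0.0895), and over the alternatives it ran from -3.08 to -1.32 with adjusted p up to 0.373, the last without small intestine replicate 1. The HNF4A lines overlapped all other groups.

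For uptake at the brush border, Slc11a2 was at 47.9, 44.8 and 52.4 CPM in GFP, 319, 204 and 67.5 in HNF4A, 258, 73.0 and 52.7 in CDX2, and 148 and 236 in small intestine lines. Each library outside GFP lay above the GFP range, though the lowest CDX2 library was hardly above the highest GFP library. The log2 differences from GFP were 2.02 ± 0.65 for HNF4A (adjusted p = 0.474 in edgeR, 0.0495 in DESeq2) and 1.99 ± 0.69 for small intestine (adjusted p = 0.0568 in edgeR, 0.0140 in DESeq2).

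Cybrd1 was at 1557, 1998 and 1359 CPM in HNF4A, 511, 1731 and 813 in GFP, 454, 630.2 and 1006 in CDX2, and 90.4 and 375 in small intestine lines. The ferric reductase was thus lowest in the intestinal cultures, by a log2 difference of -2.13 ± 0.68 from GFP (adjusted p = 0.0423 in edgeR) and -2.81 ± 0.70 from HNF4A (adjusted p = 0.0328). Both calls turned on single libraries: without small intestine replicate 1, the adjusted p was 0.235 against GFP and 0.227 against HNF4A. Against GFP the call was also lost without GFP replicate 2 (adjusted p = 0.118) or 3 (adjusted p = 0.0610), and against HNF4A without HNF4A replicate 1 (adjusted p = 0.0516), 2 (adjusted p = 0.0836) or 3 (adjusted p = 0.0603). CDX2 lines lay below HNF4A lines in all libraries, with a log2 difference of -1.23 ± 0.57 (adjusted p = 0.973).

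The receptor and the store varied least. Tfrc was at 569, 736 and 423 CPM in GFP, 526, 694 and 533 in HNF4A, 366, 586 and 372 in CDX2, and 522 and 521 in small intestine lines. Fth1 was at 846, 788 and 624 CPM in GFP, 1020, 853 and 577 in HNF4A, 1098, 775 and 725 in CDX2, and 755 and 922 in small intestine lines. Every group overlapped GFP for both genes, and the log2 differences from GFP were between -0.38 and 0.20. Fth1 has processed pseudogenes of near-identical sequence, and how shared reads were counted is not known here, so its counts are uncertain.

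**Figure D2:**
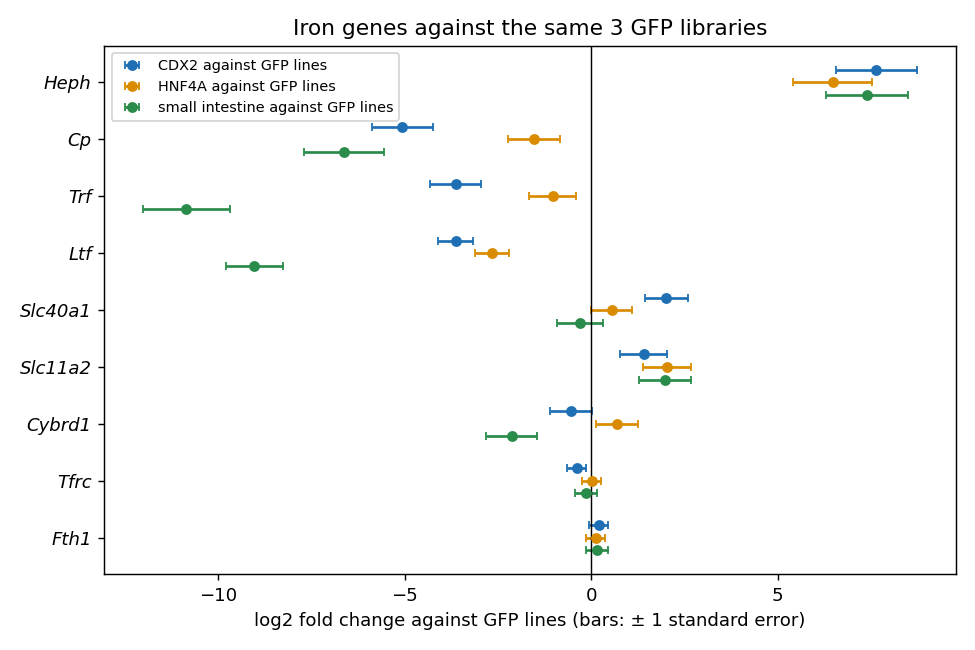
Log2 fold change of the 9 genes against the same 3 GFP libraries (horizontal axis) for CDX2 lines, HNF4A lines and small intestine organoids; points are edgeR estimates and bars are 1 standard error either side. Heph lies at 6.47 to 7.65 in all 3, Trf and Ltf reach -10.86 and -9.03 in small intestine, and Tfrc and Fth1 lie between -0.38 and 0.20.

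Counts of genes past an adjusted p of 0.05 were read against the share over all 12720 genes tested. The fits behind these counts leave out the replicate numbers that pair the gastric lines. With those numbers as a block, Heph passed in HNF4A against GFP. More of all genes then passed between gastric lines, as given in the closing sections. CDX2 against GFP had 3 of the 9 genes past it, Heph higher and Cp and Ltf lower, where 0.409% of all genes passed; nothing is read from this count, since the choice of genes used it. HNF4A against GFP had 0 of 9, with 0.142% of all genes past the threshold, 3 of the 9 at an unadjusted p under 0.05 (5.76% of all genes) and 3 in DESeq2 (Heph, Ltf and Slc11a2; 1.74% of all genes). The groups were separate for 4 genes, Heph and Slc11a2 higher and Cp and Ltf lower, against 11.6% of all genes. The median log2 difference was 0.12 for the 9 genes and 0.00 for all genes. CDX2 against HNF4A had 0 of 9 and 0.0236% of all genes, with 4 of the 9 at an unadjusted p under 0.05 (5.18% of all genes) and 2 in DESeq2, Cp and Trf (1.09% of all genes). Cp, Trf and Cybrd1 were separate and lower in CDX2 there, where 4.21% of all genes were.

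Small intestine against GFP had 5 of 9 past the threshold, Heph higher and Cp, Trf, Ltf and Cybrd1 lower, where 27.1% of all genes passed, 14.2% higher and 12.9% lower. Against CDX2 it had 2 of 9, Trf and Ltf, both lower, where 11.3% passed and 5.67% were lower. Against HNF4A, it had 4 of 9, Cp, Trf, Ltf and Cybrd1, all lower, where 12.5% passed and 6.64% were lower. The last comparison shares no library with the contrast used to choose the genes. The other comparisons share the GFP or CDX2 libraries with it, and all contrasts against GFP share the same 3 controls. The p-values of Heph, Cp and Ltf in those comparisons are therefore not independent of the choice. Small intestine and gastric organoids also differ in the marker sums given above, and the part of these differences in the iron genes was not tested.

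Other genes of iron handling were taken from a list of absorption, storage, haem, siderophore, regulatory, mitochondrial and copper-supply genes, of which 59 were in the table and 53 were tested. Small intestine organoids had 6 of the 53 higher and 7 lower than GFP lines, where 14.2% of all genes were higher and 12.9% lower, so these counts are near the background. The median log2 difference was 0.06, beside -0.01 over all genes. Among absorption and export genes, 4 of 11 tested rose and 2 fell, beside the same 14.2% and 12.9% of all genes. Slc39a14, which encodes the transporter ZIP14, was at 218 and 190.0 CPM in small intestine and at 45.8, 55.5 and 35.3 in GFP lines, a log2 difference of 2.16 ± 0.28 (adjusted p = 0.00159 in edgeR). Abcg2, an efflux pump that accepts porphyrins, was at 12.8 and 17.2 CPM against 1.39, 0.213 and 0.613, a difference of 4.32 ± 0.78. Steap1, of the STEAP reductase family, was at 13.2 and 12.6 CPM against 2.24, 4.36 and 2.08, a difference of 2.15 ± 0.60. The calls rest on few libraries: without small intestine replicate 1, most against GFP and all against CDX2 and HNF4A lines were lost. That fit leaves 1 small intestine library, and its share over all genes is not given here. The loss is therefore not read as particular to the iron genes. Slc39a14 and Abcg2 still passed against GFP whichever single library was left out. Steap1 kept its call when GFP replicate 2 was left out and lost it when each other library of those groups was (adjusted p = 0.0656 to 0.120).

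**Figure D3:**
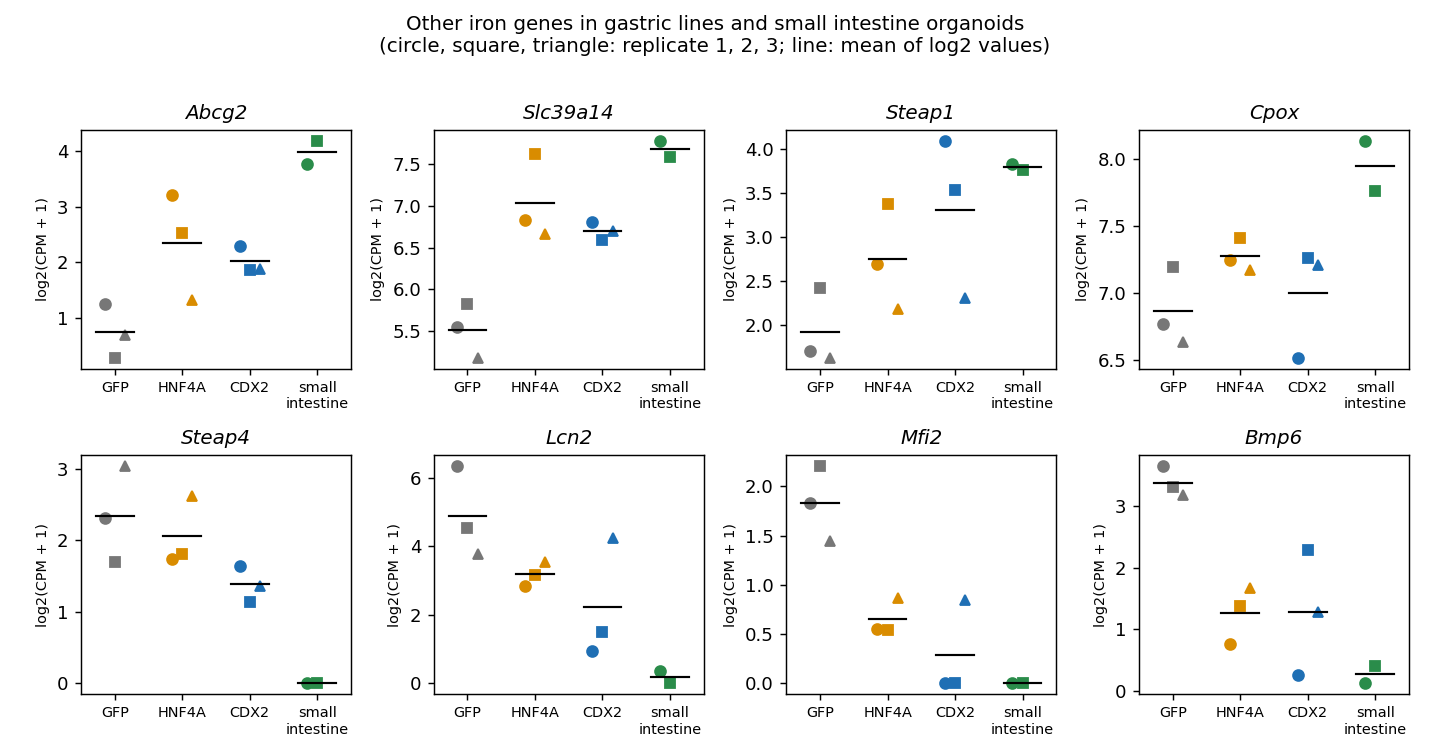
Level of 8 further iron genes, as log2(CPM + 1), in each library of the gastric lines and the small intestine organoids; points are libraries and horizontal lines are means of the log2 values. The upper 4 genes are higher in small intestine than in every GFP library, and the lower 4 are at or near 0 there.

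Cpox, a haem synthesis enzyme, was at 280.5 and 216 CPM in small intestine and at 108, 145 and 98.4 in GFP lines, a log2 difference of 1.08 ± 0.25. In that mitochondrial and haem group 2 of 17 genes rose and none fell, no more than the 14.2% of all genes that rose. Against the CDX2 lines, Slc39a14 and Cpox were again higher, by 0.99 ± 0.28 (adjusted p = 0.0484) and 0.93 ± 0.25 (adjusted p = 0.0431), and these were the 2 of 53 higher in that comparison. Both calls were lost whichever of the 5 libraries compared was left out, at adjusted p = 0.0503 to 0.340. Against GFP the Cpox call was lost without small intestine replicate 1 (adjusted p = 0.120). None of the 53 was higher than in the HNF4A lines.

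On the lower side, both genes of the siderophore pair fell from GFP to small intestine. Lcn2, which encodes the siderophore-binding lipocalin, was at 80.8, 22.1 and 12.9 CPM in GFP lines and had 3 and 0 reads in small intestine. The pooled ratio of GFP to small intestine was 263, with an exact 95% counting interval of 89.7 to 1276 that covers counting error only. Slc22a17, described as a receptor for it, was at 63.2, 55.5 and 29.5 CPM in GFP lines and 1.58 and 2.30 in small intestine, a log2 difference of -4.66 ± 0.50 (adjusted p = 0.000632 in edgeR). Small intestine was lower in Slc22a17 than CDX2 lines by -2.98 ± 0.47 and than HNF4A lines by -3.43 ± 0.47 as well. The Slc22a17 call against GFP held whichever single library was left out. The Lcn2 call was lost without small intestine replicate 1 (adjusted p = 0.0815) or 2 (adjusted p = 0.0632), and without replicate 1 so were those of Slc22a17 against CDX2 (adjusted p = 0.0993) and HNF4A lines (adjusted p = 0.0586).

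The metalloreductase gene Steap4 had no read in small intestine against a GFP mean of 4.47 ± 2.54 CPM (SD, n = 3), at least 29.6-fold lower by the limit of 3 counts over both libraries. Mfi2, for the transferrin-family protein melanotransferrin, had none either against 2.63 ± 0.95 CPM, at least 17.4-fold lower. Bmp6, an inducer of hepcidin in liver, had 1 and 3 reads in small intestine and was at 11.5, 8.93 and 8.09 CPM in GFP lines (log2 difference -5.44 ± 1.19, adjusted p = 0.0104 in edgeR). The other called genes that were lower were Tmprss6, a protease that restrains hepcidin, and Atp7b, a copper pump that loads ceruloplasmin. Atp7b was at 13.0 ± 7.49 CPM (SD, n = 2) in small intestine, 180 ± 78.6 in GFP and 155 ± 85.3 in HNF4A lines (SD, n = 3 each), and fell against both. Without small intestine replicate 1 the calls of Bmp6 (adjusted p = 0.101), Mfi2 (adjusted p = 0.136), Tmprss6 (adjusted p = 0.166) and Atp7b (adjusted p = 0.0785) against GFP were lost. That of Mfi2 was also lost without small intestine replicate 2 or GFP replicate 2, and that of Tmprss6 without small intestine replicate 2 or GFP replicate 3. Lower calls numbered 3 of 53 against CDX2 lines (Steap4, Slc22a17 and Tmprss6) and 4 of 53 against HNF4A lines (those and Atp7b), near the 5.67% and 6.64% of all genes that were lower.

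Between the gastric lines none of the 53 passed edgeR. At an unadjusted p under 0.05 there were 13 in CDX2 against GFP, 6 in HNF4A against GFP and 2 in CDX2 against HNF4A, beside 11.2%, 5.76% and 5.18% of all genes. DESeq2 called 4, 3 and 1 of them, beside 3.88%, 1.74% and 1.09% of all genes. Slc39a14 was at 113, 195 and 100.03 CPM in HNF4A and at 110.4, 95.7 and 102 in CDX2 lines, above every GFP line in all of them, with log2 differences from GFP of 1.58 ± 0.26 (adjusted p = 0.0657) and 1.18 ± 0.26 (adjusted p = 0.0911). With the replicate block both passed (adjusted p = 0.0239 and 0.0234), and 4 of the 53 passed in CDX2 and 2 in HNF4A against GFP. Slc22a17 was below the GFP range in all CDX2 lines, by -1.68 ± 0.36 (adjusted p = 0.0849, or 0.0425 with the block). Tfr2, the second transferrin receptor and a liver iron sensor, was at 10.9, 10.5 and 5.72 CPM in HNF4A lines. It had 5, 4 and 0 reads in GFP, 0, 4 and 0 in CDX2 and 7 and 4 in small intestine lines. Its log2 difference of HNF4A from GFP was 4.74 ± 1.07 (adjusted p = 0.170 in edgeR, 0.0480 with the block and 2.42e-05 in DESeq2). Summed hepatocyte markers were 23.0 to 72.8 CPM in HNF4A, 1.23 to 20.3 in GFP, 3.79 to 67.3 in CDX2 and 1.96 to 9.99 in small intestine lines. CDX2 replicate 2, at 67.3 CPM of these markers, had 4 reads of Tfr2. Their part in the Tfr2 values was not tested.

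In the enhancer experiment every library carries HNF4A. The genotypes are those of the labels, and the level of Cdx2 is given beside them. Cdx2 was at 16.7, 26.8 and 58.5 CPM in wild type, 18.4, 5.55 and 9.31 in heterozygous, and 0.199, 1.36 and 0.585 in homozygous libraries. Its log2 difference of homozygous from wild type was -5.53 ± 0.79, which did not pass edgeR (adjusted p = 0.377) and passed DESeq2 (adjusted p = 8.75e-11). Heterozygous libraries overlapped wild type in Cdx2 (-1.62 ± 0.62, adjusted p = 0.511 in edgeR). Hnf4a was at 320.0 to 513 CPM in wild type, 276 to 422 in heterozygous and 336 to 374 in homozygous libraries.

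Heph was at 17.4, 32.4 and 86.4 CPM in wild type, 44.3, 4.44 and 5.34 in heterozygous, and 5.08, 4.87 and 8.90 in homozygous libraries. Hephaestin was thus lower in all 3 homozygous than in all 3 wild type libraries, while heterozygous replicate 1 lay with wild type and the other heterozygous libraries lay with homozygous. The log2 difference of homozygous from wild type was -2.85 ± 0.95. It did not pass edgeR (unadjusted p = 0.0145, adjusted p = 0.877) and passed DESeq2 (adjusted p = 0.0439). Over the alternatives that adjusted p ran from 0.0439 to 1. Leaving out the 3 libraries richest in fibroblast markers gave -3.17, and leaving out wild type replicate 3, the library with Ddx3y, gave -1.99. Heterozygous differed from wild type by -1.33 ± 0.89 (adjusted p = 0.676 in edgeR). The difference was -0.03 with heterozygous replicate 1 alone, once the same fibroblast-rich libraries, heterozygous replicates 2 and 3 among them, were left out. Without heterozygous replicate 1 it was -3.19 (adjusted p = 0.114), and without wild type replicate 3 it was -0.48 (adjusted p = 0.904). Homozygous differed from heterozygous by -1.52 ± 0.92 (adjusted p = 1), which turned to 0.36 without heterozygous replicate 1.

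**Figure D4:**
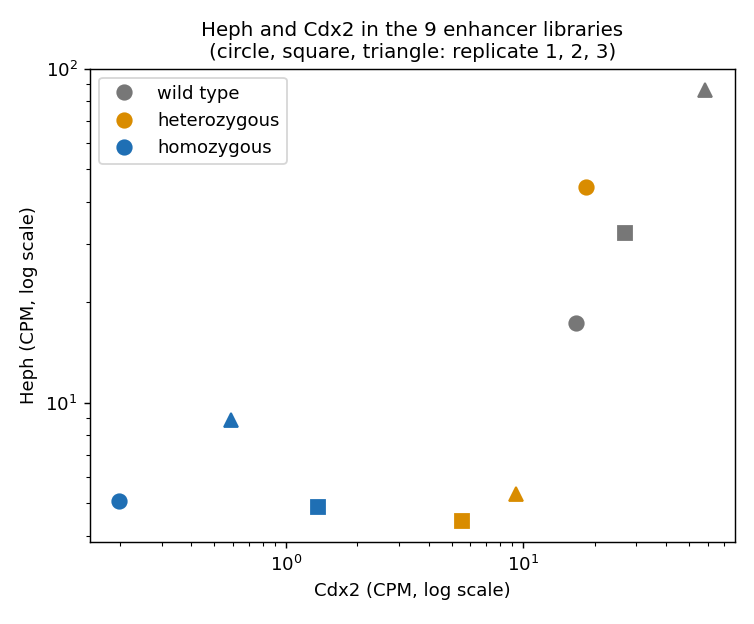
Heph against Cdx2 in the 9 enhancer libraries, both in CPM on log axes; colours mark the genotype and shapes the replicate. The 4 libraries with Cdx2 at 16.7 CPM or more hold Heph at 17.4 to 86.4 CPM, and the other 5 hold it at 4.44 to 8.90.

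The 4 libraries with the most Cdx2, all 3 wild type and heterozygous replicate 1, were also the 4 with the most Heph. They had 16.7 to 58.5 CPM of Cdx2 and 17.4 to 86.4 CPM of Heph. The other 5 had 0.199 to 9.31 CPM of Cdx2 and 4.44 to 8.90 CPM of Heph. This split was made after the values were seen, and no relation was tested. Within the other 5, Heph did not follow Cdx2. Homozygous replicate 3 had 0.585 CPM of Cdx2 and 8.90 of Heph, and heterozygous replicate 3 had 9.31 and 5.34. Wild type replicate 3 and heterozygous replicate 1, highest in Heph, were the lowest in Cp and Trf.

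Exporter and transporter were lower in the homozygous libraries too, without passing the test. Slc40a1 was at 143, 114 and 216 CPM in wild type, 136, 77.6 and 64.5 in heterozygous, and 105, 101 and 69.2 in homozygous libraries (homozygous against wild type -0.78 ± 0.33, adjusted p = 0.999). Slc11a2 was at 219, 211 and 343 CPM in wild type, 72.2, 161 and 131 in heterozygous, and 107, 201 and 63.9 in homozygous libraries (-1.05 ± 0.43, adjusted p = 0.999). Both were separate between homozygous and wild type, and Slc11a2 was separate between heterozygous and wild type as well (-1.08 ± 0.43, adjusted p = 0.534). Cybrd1 was at 2001, 1869 and 3329 CPM in wild type, 1092, 1267 and 1152 in heterozygous, and 1918, 2183 and 781 in homozygous libraries. The heterozygous libraries lay below wild type by -1.04 ± 0.37 (adjusted p = 0.488), and the homozygous ones overlapped it.

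**Figure D5:**
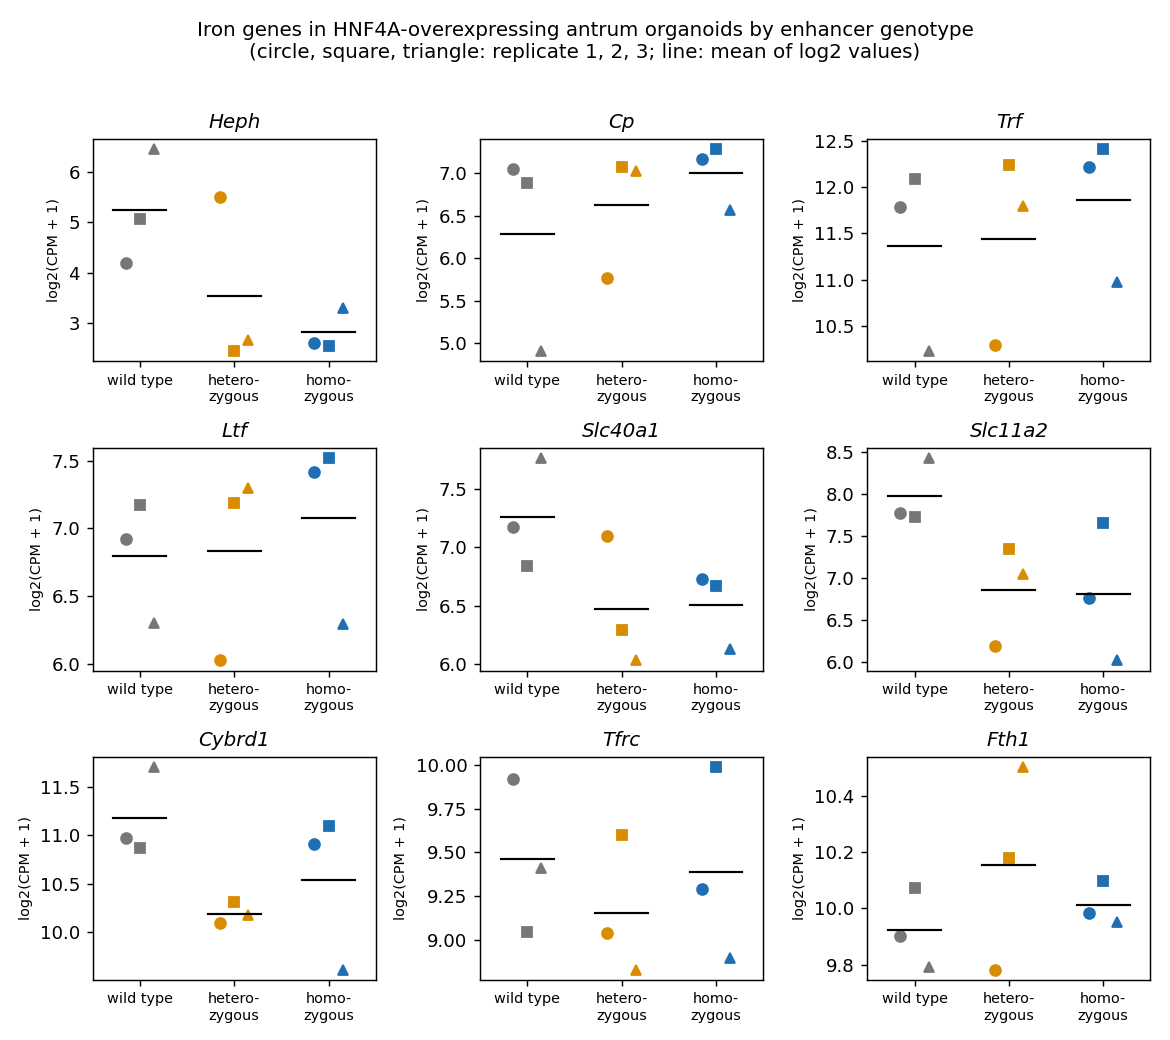
Level of each of the 9 genes, as log2(CPM + 1), in the wild type, heterozygous and homozygous enhancer libraries, all with HNF4A overexpression; points are libraries and horizontal lines are means of the log2 values. Heph, Slc40a1 and Slc11a2 are lower in all homozygous than in all wild type libraries, and the other 6 genes overlap.

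The carriers and the plasma ferroxidase overlapped between all genotypes. Trf was at 3534, 4363 and 1194 CPM in wild type, 1253, 4844 and 3560 in heterozygous, and 4757, 5470 and 2005 in homozygous libraries. Cp was at 132, 117 and 28.9, then 53.4, 134 and 129, then 144, 156 and 93.5 CPM in the same order. Ltf was at 120, 143 and 77.6, then 64.0, 145 and 156, then 170, 183 and 77.5 CPM. Homozygous against wild type gave log2 differences of 0.43 ± 0.59 for Trf, 0.50 ± 0.53 for Cp and 0.33 ± 0.41 for Ltf. Tfrc ran from 454 to 1014 CPM and Fth1 from 880 to 1448 over the 9 libraries, with differences of -0.04 and 0.09.

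In edgeR none of the 9 genes passed in homozygous or heterozygous against wild type or in homozygous against heterozygous. Neither did any of the 12593 genes tested (0% in each), Cdx2 among them. At an unadjusted p under 0.05 there were 3, 3 and 0 of the 9, beside 4.59%, 8.93% and 0.262% of all genes. DESeq2 called 1, 0 and 0 of the 9, where it called 1.43%, 2.6% and 0.00794% of all genes. The 3 genes separate and lower in homozygous libraries stood beside 4.17% of all genes, and the 2 in heterozygous libraries beside 6.15%. The fibroblast sums and Wnt3a given above also separate wild type from both deletion genotypes, so these cannot be told apart from the deletion. The median log2 difference was -0.04 for homozygous and -0.31 for heterozygous against wild type, and 0.00 for all genes in the first.

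Of the 53 further iron genes, none passed edgeR or DESeq2 in these 3 comparisons, and 1, 3 and 0 had an unadjusted p under 0.05. Over all genes these shares were 4.59%, 8.93% and 0.262%, so the counts do not exceed the background, and the genes named next are given as values only. Epas1, which encodes HIF-2alpha, a hypoxia factor that drives iron uptake genes in enterocytes, was at 40.6, 41.9 and 91.0 CPM in wild type, 42.7, 30.1 and 21.0 in heterozygous, and 27.0, 35.9 and 25.2 in homozygous libraries. Its log2 difference from wild type was -0.98 ± 0.36 in homozygous (adjusted p = 0.942) and -0.88 ± 0.36 in heterozygous (adjusted p = 0.543). Ncoa4, the receptor that sends ferritin for breakdown, was at 411, 347 and 825 CPM in wild type and at 262, 317 and 308 in homozygous libraries (-0.84 ± 0.38, adjusted p = 0.999). Steap1 had a log2 difference of heterozygous from wild type of 1.64 ± 0.68 (adjusted p = 0.544), with 5.34, 20.7 and 35.5 CPM against 5.85 to 7.73. Its highest levels fell in heterozygous replicates 3 and 2 and homozygous replicate 3, at 18.4 CPM, which are the 3 libraries richest in fibroblast markers. Without these the difference of heterozygous from wild type was -0.30, with heterozygous replicate 1 alone in its group.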

How the data were processed

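Total RNA of organoids was extracted with TRIzol and column DNase treatment, and poly-A libraries were read as 150 bp pairs, per the labels' protocols. The deposited values are raw counts of reads per gene symbol, made by the authors. STAR and mm10 are named for the enhancer libraries in the submitters' processing notes, and Bowtie2, STAR, Cell Ranger, hg19 and mm10 for the lines, with no role given. No program, strand setting or gene models for the counting step were found, these being not given in the sources used here. One label calls the transgene lines small intestine organoids; their titles and tissue tag were followed.

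Each experiment was fitted apart in R 4.3.3 with edgeR 4.0.16: filterByExpr (minimum count 10, minimum total 15), TMM factors, robust quasi-likelihood fits, 2-sided tests and Benjamini-Hochberg adjustment over all genes tested, with a threshold of 0.05. CPM values use TMM library sizes. Alternatives used DESeq2 1.42.0, limma-voom (limma 3.58.1) and other settings. Levels are not compared between genes, as CPM is not per length. The fits were run on simulated counts with a fixed spread and large changes, which gives no measure of their power in these data. Replicates of a group differed beyond counting noise (chi-square per degree of freedom 21.7 to 84.1). Same-numbered gastric lines deviated together (9 pairs, r = 0.336 to 0.751), so their numbers were taken to pair them. The main fits leave this pairing out, and the replicate block is an alternative. Pairs with small intestine (r = -0.09 to 0.12) did not deviate together, and pairs with wild type had r = -0.29 to 0.24. The 3 heterozygous and homozygous pairs had r = 0.188 to 0.530, which overlaps the range with wild type, so whether their numbers pair them is unclear.

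The genes and lists were chosen with earlier results of these data known. Text names all 9 genes. From the further iron genes it names, per comparison, up to 4 higher and 4 lower passing genes by size, or the 2 smallest p where none passed; others named were chosen after their values were seen. A limit for a count of 0 is 3 counts.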

Additional observations from a re-analysis of the deposited data

How the results depend on the processing

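Of the 9 genes, DESeq2 called 5 in CDX2 against GFP (3 in edgeR), 3 in HNF4A against GFP (0), 2 in CDX2 against HNF4A (0), 4 in small intestine against CDX2 (2) and 1 in homozygous against wild type (0). Limma-voom called 1, and a fit of the 2 groups alone 0, in CDX2 against GFP; that smaller fit called 1 in small intestine against CDX2. With the replicate block, 1 was called in HNF4A against GFP and 4 in small intestine against CDX2 (numbers do not pair small intestine); the block also brought Trf past the threshold in CDX2 against GFP (adjusted p = 0.0364 against 0.0651 in edgeR), and moved no other call of the 9 genes between gastric lines or between deletion genotypes. Leaving out 1 library at a time gave 1 to 3 in CDX2 against GFP (1 without CDX2 replicate 1, GFP replicate 1 or GFP replicate 3), 0 to 1 in HNF4A against GFP, 1 to 3 in small intestine against CDX2 and 2 to 4 in small intestine against HNF4A, where all libraries gave 3, 0, 2 and 4; the lowest of the last pair were without small intestine replicate 1. No value of the 9 genes that passed edgeR reversed. Counts over all genes with 1 library left out are not given here. A drop in the calls of the 9 genes or of the further iron genes is therefore not read as particular to them. Calls against small intestine were further lost for Cybrd1 with no filter (adjusted p = 0.0517, GFP) and with the 2 groups alone (0.0981, GFP, and 0.0668, HNF4A), for Trf with the 2 groups alone (0.0620, CDX2) and for Cp in limma-voom (0.0973, HNF4A).

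Over all genes, edgeR, DESeq2 and the replicate block called 52, 493 and 578 in CDX2 against GFP (limma-voom 4, 2 groups alone 14), 18, 221 and 100 in HNF4A against GFP (limma-voom 5), 3, 139 and 28 in CDX2 against HNF4A (limma-voom 2, 2 groups alone 0), 1437, 2675 and 2942 in small intestine against CDX2 (2 groups alone 70), 1585, 2791 and 3061 in small intestine against HNF4A (2 groups alone 559), 0, 180 and 5 in homozygous against wild type, 0, 327 and 51 in heterozygous against wild type, and 0, 1 and 0 in homozygous against heterozygous. The cause was not tested. Of the 53 further genes, DESeq2 and the block called 11 and 9, and the 2 groups alone 0, in small intestine against CDX2 (5 in edgeR).

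Direction turned for values near 0 or set by 1 library. With 1 library left out, log2 differences ran from -0.16 to 0.24 (Tfrc) and -0.073 to 0.31 (Fth1) in HNF4A against GFP, -0.32 to 0.074 (Tfrc) and -1.06 to 0.21 (Slc40a1) in small intestine against GFP, -0.39 to 0.22 (Tfrc) in homozygous against wild type, -0.25 to 0.53 (Cp), -0.36 to 0.47 (Trf) and -0.14 to 0.41 (Ltf) in heterozygous against wild type, and -1.98 to 0.36 (Heph) in homozygous against heterozygous. Leaving out the 3 fibroblast-rich libraries, chosen after seeing the data, gave 0.18 for Tfrc in homozygous against wild type. In heterozygous against wild type it gave -0.80 for Cp, -1.28 for Trf, -0.83 for Ltf, -0.15 for Fth1 and -0.30 for Steap1. These heterozygous values rest on heterozygous replicate 1 alone, as replicates 2 and 3 were left out. Depth limits Heph in GFP, and Trf, Ltf and Cp in small intestine, where libraries held 0 to 30 reads. With 2 or 3 libraries a group, a missed threshold does not show that levels were alike.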

Other observations

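Genes whose levels ran most like those of Heph, Cp and Ltf were listed over the 11 libraries of the lines, among 10647 genes with a mean of at least 5 CPM, by Pearson's r of log2 CPM. For Heph these were Cdhr5 (0.98), Clrn3 (0.97), Pcsk5 (0.97), Gucy2c (0.97) and Myo7b (0.96). Cdhr5 and Myo7b encode parts of the brush border's intermicrovillar links, and Gucy2c encodes the intestinal guanylin receptor. For Cp they were Ggcx (0.98), which encodes the vitamin K-dependent carboxylase, the complement gene C3 (0.98), Trim46 (0.97), Kcnj15 (0.96) and Dnajc10 (0.96). For Ltf they were Suco (0.99), Aox1 (0.98), Hmgn3 (0.98), Slc22a17 (0.98) and Sdf4 (0.97). The libraries share their groups, so each r describes mainly the differences between 4 groups and carries no p-value.

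Hamp, which encodes the iron hormone hepcidin, had 0 to 5 reads in each library of the lines and 0 to 12 in each enhancer library. Tfr2 was at 11.5 to 22.4 CPM in wild type, 19.7 to 49.4 in heterozygous and 20.2 to 46.2 in homozygous enhancer libraries, all of which carry HNF4A.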
